A study of Mus musculus with 8 samples.

Results

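Complement is carried in blood as precursor proteins, but macrophages also make many of them, and the genes described here are the components and 1 regulator of the classical and alternative pathways in bone marrow-derived macrophages (BMDM). The 9 genes were *C1qa*, *C1qb*, *C1qc*, *C1ra*, *C1s1* and *C4b* of the classical pathway, *C3*, which all pathways share, *Cfb* of the alternative pathway and its positive regulator *Cfp*. They were taken by symbol from the 53819 gene rows of the count table and had been chosen with the measured bilirubin against vehicle difference known, so their differences between the groups are given as a description with no test. Of the 9 genes, 8 passed the filter on low counts, among 13722 genes tested, and *C4b* did not. BMDM had been grown from the marrow of 4 female BALB/cJ mice aged 8 weeks, each kept as a separate culture, with 25 ng/mL macrophage colony-stimulating factor (M-CSF) for 5 days. One culture of each mouse then received 2.5 µM bilirubin, the product of heme breakdown, and the other received its vehicle, DMSO, for 48 h, which gave 4 bilirubin and 4 vehicle libraries. All cultures shared the strain, sex, age and M-CSF treatment. RNA came from whole cultures, in which fewer cells of a type and less RNA per cell cannot be told apart.

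In the classical pathway, C1q, built from the chains that *C1qa*, *C1qb* and *C1qc* encode, recognizes antibody or a cell surface, and its partner proteases C1r and C1s then cleave C4 and C2 to form a C3 convertase. The alternative pathway turns over at a low rate by itself, uses factor B (*Cfb*) cleaved by factor D as its convertase, and is stabilized on surfaces by properdin (*Cfp*). Both arms cleave C3, whose fragments coat targets for uptake by macrophage receptors and attract leukocytes. Tissue macrophages are a well-known source of C1q.

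The 3 C1q genes lie side by side on the minus strand of chromosome 4 (GRCm39), *C1qb* at chr4:136606009-136613511, *C1qc* at chr4:136616466-136620376 and *C1qa* at chr4:136623223-136626161, with 3.0 kb and 2.8 kb between neighbours. *C1ra* (chr6:124489364-124500402, plus strand) and *C1s1* (chr6:124507297-124559389, minus strand) are 6.9 kb apart, and the annotated span of *C1s1* also holds *C1rb* on the opposite strand. *C4b* (chr17:34947354-34962912) and *Cfb* (chr17:35074852-35081559) are both on the minus strand in the major histocompatibility region, and *Cfb* begins 18 bases from *C2*. *C3* is elsewhere on that chromosome (chr17:57510964-57535155, minus strand) and *Cfp* is on the X chromosome (chrX:20791688-20797794, minus strand). The *Cfb* gene shares 6172 bases of the same strand with the annotated gene *Gm20547*, which also overlaps *C2*.

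RefSeq promoters (GRCm38.p6, 250 bases before the annotated start, written 5′ to 3′ on the strand of the gene) were matched by symbol to 6 of the 9 genes, and *C1qa*, *C4b* and *Cfb* had no entry. Each was searched on both strands for 5 motifs: NF-kB (GGGANNNNCC), C/EBP (TTGCNNAA), interferon response element (GAAANNGAAA), GAS (TTCNNNGAA) and PU.1 (GAGGAA). Of 32851 RefSeq promoters of that length, 17.63% held the NF-kB letters, 9.56% the C/EBP letters, 2.98% the interferon response element, 7.02% the GAS letters and 23.25% the PU.1 letters. The promoters of *C3* (chr17:57228137-57228386), of the more downstream of 2 listed *C1s1* starts, whose promoters overlap (chr6:124542322-124542571), of *C1qc* (chr4:136892915-136893164) and of *C1qb* (chr4:136886201-136886450) are shown because *C3* and *C1s1* were among the genes with the largest differences below and the C1q genes were not past the threshold. Capitals mark motif matches.
C3: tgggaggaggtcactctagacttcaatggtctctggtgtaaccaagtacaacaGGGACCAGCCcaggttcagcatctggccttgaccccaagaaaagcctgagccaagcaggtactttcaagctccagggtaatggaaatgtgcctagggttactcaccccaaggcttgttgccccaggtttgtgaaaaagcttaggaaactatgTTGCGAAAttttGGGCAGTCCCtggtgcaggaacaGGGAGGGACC
C1s1: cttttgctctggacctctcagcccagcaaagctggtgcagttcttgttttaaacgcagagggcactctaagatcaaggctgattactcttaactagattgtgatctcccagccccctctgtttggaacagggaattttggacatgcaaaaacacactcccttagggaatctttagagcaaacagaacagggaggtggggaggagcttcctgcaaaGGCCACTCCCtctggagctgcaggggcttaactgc
C1qc: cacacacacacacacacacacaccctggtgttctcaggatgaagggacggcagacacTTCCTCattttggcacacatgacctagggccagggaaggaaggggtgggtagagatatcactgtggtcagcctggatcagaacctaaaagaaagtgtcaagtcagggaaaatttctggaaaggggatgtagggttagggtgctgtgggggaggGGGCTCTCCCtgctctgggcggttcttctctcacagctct
C1qb: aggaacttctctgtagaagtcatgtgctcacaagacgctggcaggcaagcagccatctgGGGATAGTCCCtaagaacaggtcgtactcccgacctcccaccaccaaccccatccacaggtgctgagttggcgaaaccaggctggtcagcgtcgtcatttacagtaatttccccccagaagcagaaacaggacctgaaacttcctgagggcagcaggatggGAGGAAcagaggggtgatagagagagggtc
The *C3* promoter held the NF-kB letters 3 times, at 197 to 188, 33 to 24 and 10 to 1 bases before the start, and the C/EBP letters once, at 45 to 38 bases before it. The *C1s1* promoter shown held 1 NF-kB match, at 35 to 26 bases before the start, and the other listed *C1s1* promoter held 1 C/EBP match, at 242 to 235 bases. The *C1qc* promoter held 1 NF-kB and 1 PU.1 match, and the *C1qb* promoter held 2 overlapping NF-kB matches, at 191 to 182 and 190 to 181 bases, and 1 PU.1 match. No match was found in the promoters of *C1ra* and *Cfp*. A match is a description of letters and not of a bound site, and the NF-kB letters were present both in promoters of genes past the threshold below and in promoters of C1q genes that were not past it.

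Vehicle libraries held 37747315 to 47071714 estimated counts and bilirubin libraries 34142781 to 41054034, with the lowest total in the bilirubin culture of mouse 1. Macrophage markers were abundant, with a summed level of 24210 to 24511 CPM (counts scaled to the size of the library) in vehicle and 28574 to 30555 CPM in bilirubin cultures, of which 3 of 8 rose and 1 fell (edgeR, adjusted p under 0.05). Fibroblast markers, of a cell type that also makes C1r, C1s and C3, summed to 2.90 to 9.44 CPM in vehicle and 2.71 to 8.70 CPM in bilirubin cultures, with *Col3a1*, *Dcn* and *Lum* at 3 counts or fewer in every library. Neutrophil markers summed to 10.9 to 13.7 CPM in vehicle and 19.1 to 31.9 CPM in bilirubin cultures, of which 1 of 8, *S100a8*, rose, while *Ly6g*, *Camp* and *Retnlg* were at 3 counts or fewer. Erythroid and megakaryocyte markers summed to 51.6 to 61.7 CPM and 33.7 to 42.8 CPM, with 1 of 6 lower (*Pf4*), and endothelial markers to 13.3 to 15.1 CPM and 9.88 to 18.5 CPM. Dendritic, B, T and NK, and mast cell and basophil markers each summed to at most 0.647 CPM in any library. The part of these differences in the complement results was not tested.

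Levels in the vehicle cultures were compared as TPM, transcript abundance scaled for both transcript length and library size. *C1qc* (178 ± 35.6 TPM, SD, n = 4) and *Cfp* (177 ± 10.0 TPM) were highest, and their ranges of 141 to 219 and 167 to 190 TPM overlapped. *C1qa* followed at 53.7 ± 14.3 TPM, *C1qb* at 18.1 ± 3.58 TPM, *C1ra* at 8.05 ± 1.32 TPM and *C3* at 5.43 ± 0.695 TPM. From *Cfp* to *C3*, the ranges of neighbours in this order did not overlap. *C1s1* (0.395 ± 0.377 TPM), *Cfb* (0.305 ± 0.327 TPM) and *C4b* (0.111 ± 0.130 TPM) were at the bottom with overlapping ranges, and the highest *C1s1* value, 0.956 TPM in mouse 1, included 4.4 reads given to a short transcript. *C1qc* and *Cfp* thus each stood above 94.4% of the tested genes in TPM, and *C3* above 30.9% and *Cfb* above 4.45%. Between the 4 vehicle cultures, *Cfp* and *C3* varied least, with coefficients of variation in CPM of 5.48% and 6.69%, against 25.8% for *C1qa*, 19.3% for *C1qb*, 19.0% for *C1qc* and 15.4% for *C1ra*.

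**Figure D1:**
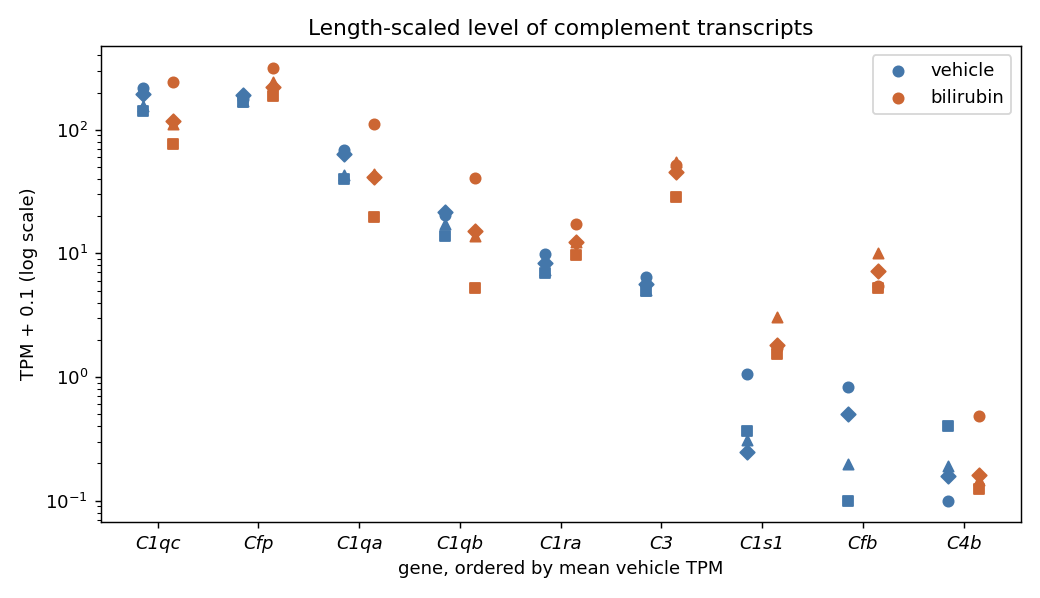
Level of each gene in the 4 vehicle (blue) and 4 bilirubin (orange) libraries, as TPM plus 0.1 on a log scale, with genes ordered by their mean vehicle TPM and symbols marking mice as in the other plots (circle, square, triangle and diamond for mice 1 to 4). *C1qc* and *Cfp* have the highest means in both groups, and *C3* moves from the sixth to the fourth place with bilirubin.

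With bilirubin, *C3*, *C1s1* and *Cfb* were several times higher, *C1ra* and *Cfp* were moderately higher, and the C1q chains were not uniformly higher or lower. Of the 8 genes that passed the filter, 5 were past the threshold of an adjusted p of 0.05 and higher, 0 were lower and 3 were not past it, and the groups did not overlap in CPM for 5. Over all tested genes, 7.53% were past the threshold, 4.49% as higher and 3.04% as lower, and 10.6% had groups that did not overlap. The median log2 fold change was 0.59 over the 8 genes and -0.00181 over all tested genes. Because the 9 genes were selected on this difference, nothing is read from these shares.

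**Figure D2:**
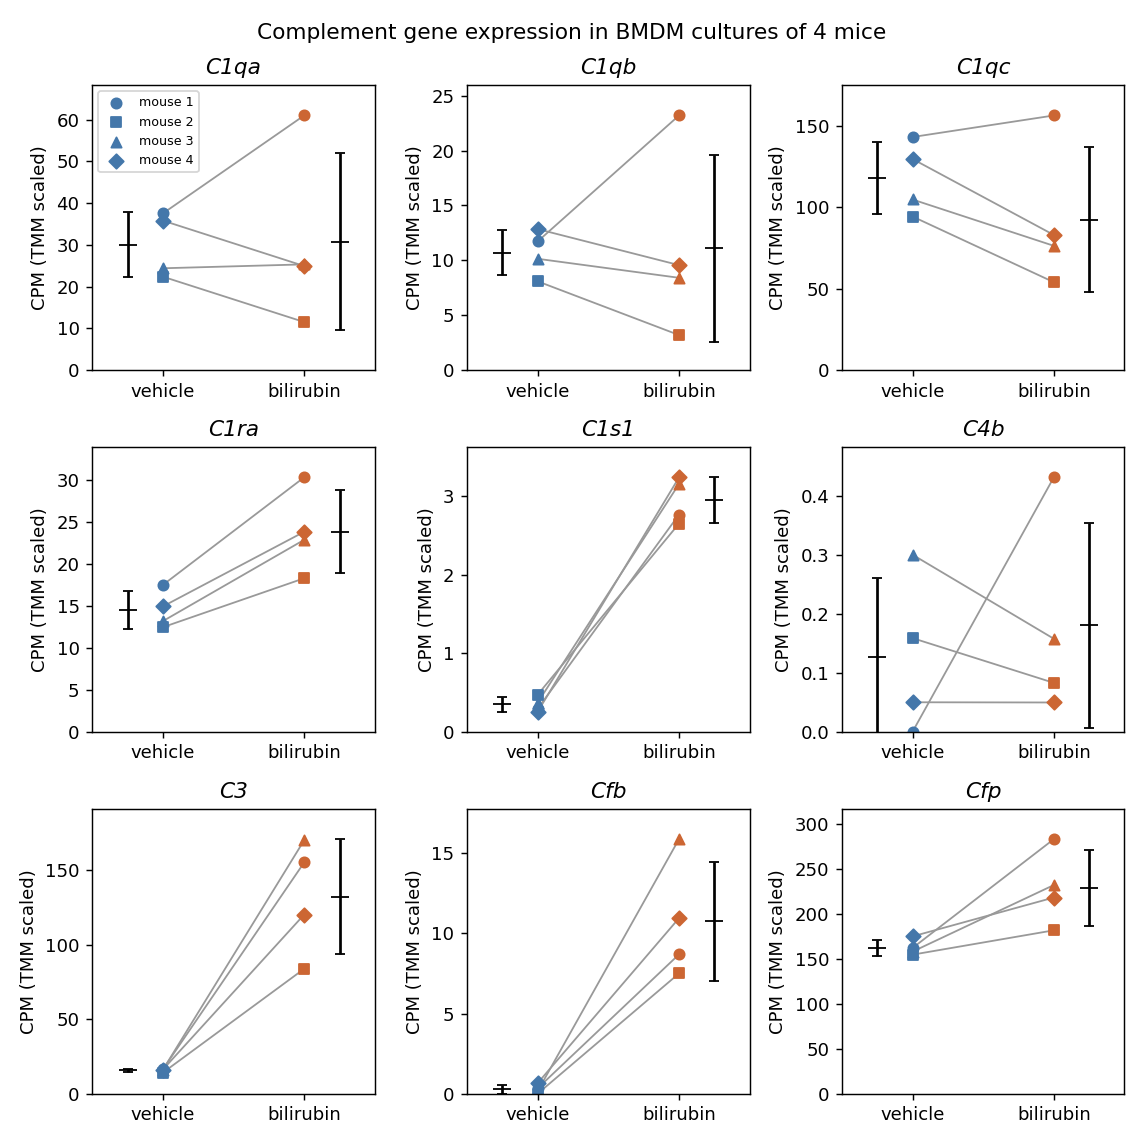
Level of the 9 genes in each library, as CPM on a linear axis from 0 that differs between panels, with a line joining the vehicle (blue) and bilirubin (orange) culture of each mouse and the mean ± SD (n = 4) beside each group. All 4 lines climb for *C1ra*, *C1s1*, *C3*, *Cfb* and *Cfp*, whereas the C1q panels fan out, with mouse 1 highest in every C1q panel with bilirubin.

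*C3*, whose product is the substrate of both convertases, was at 16.3, 14.1, 16.0 and 16.2 CPM in the vehicle cultures of mice 1 to 4. It was at 155, 83.8, 170 and 120 CPM in their bilirubin cultures. The lowest bilirubin culture, of mouse 2, was several times above the highest vehicle culture. The means were 15.6 ± 1.05 and 132 ± 38.5 CPM (SD, n = 4), with a log2 fold change of 3.05 (SE 0.12), or 8.26-fold, and log2 changes of 3.25, 2.57, 3.41 and 2.89 in the individual mice. On the TPM scale *C3* went from 5.43 ± 0.695 to 45.1 ± 11.8 TPM, and from above 30.9% to above 76.7% of tested genes. A single transcript carried 99.12% of its reads in vehicle and 99.2% in bilirubin cultures.

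*Cfb*, which encodes the protease of the alternative convertase, had 16, 0, 7 and 28 counts in the vehicle cultures of mice 1 to 4. It had 302, 271, 637 and 440 counts with bilirubin. The gene was therefore near the detection limit in vehicle cultures and clearly counted in every bilirubin culture, at 8.69, 7.50, 15.9 and 10.9 CPM. The ratio of CPM was 25.8 in mouse 1, 99.0 in mouse 3 and 16.6 in mouse 4, and at least 94.4-fold higher in mouse 2 by the counts given to *Cfb* alone, where 3 counts stood for the vehicle count of 0. In that vehicle culture 10.3 counts had been given to *Gm20547*, which overlaps both *Cfb* and *C2*. *C2* had a fractional 18.7 counts there and whole counts in the other libraries, whereas *Cfb* had 0. With all of the *Gm20547* counts added to *Cfb* the ratio in mouse 2 was 27.5, but how many of them belong to *Cfb* was not tested. The log2 fold change of *Cfb* was 5.20 (SE 0.42), and between 4.83 and 5.91 with each mouse left out in turn. Its reads in bilirubin cultures were spread over several of its 8 annotated transcripts, the top 3 holding 43.9%, 28.6% and 25.0%, and the mix differed between libraries, so its TPM (6.92 ± 2.23 with bilirubin) depends on that assignment.

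*Cfp* encodes properdin, the positive regulator that holds the alternative convertase together. It was already abundant in vehicle cultures, at 162, 155, 158 and 175 CPM. With bilirubin it was at 283, 182, 232 and 218 CPM. In CPM each bilirubin culture was above every vehicle culture, although mouse 2 with bilirubin was only slightly above the highest vehicle culture. In TPM the groups overlapped, with 188 in mouse 2 with bilirubin and 190 in mouse 4 with vehicle. The means were 162 ± 8.89 and 229 ± 42.0 CPM (SD, n = 4), a log2 fold change of 0.48 (SE 0.08), or 1.39-fold, with 0.81, 0.23, 0.55 and 0.32 in mice 1 to 4. Without mouse 3 the log2 fold change was 0.45 and *Cfp* was no longer past the threshold.

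The classical proteases were higher with bilirubin in all 4 mice. *C1s1*, which encodes the C1s protease that cleaves C4 and C2, had 14, 17.9, 16.3 and 10.9 estimated counts in vehicle and 96.2, 95.9, 127 and 130 in bilirubin cultures. In CPM these were 0.294, 0.474, 0.373 and 0.256 against 2.77, 2.65, 3.16 and 3.24. All vehicle cultures were low, with a coefficient of variation of 27.5%, and the bilirubin cultures lay close together at the higher level. The log2 fold change was 3.09 (SE 0.25), or 8.50-fold, with 3.03, 2.36, 2.95 and 3.41 in mice 1 to 4 at a prior count of 2. The ratio of mean TPM was lower, 4.88, and includes the short transcript in the vehicle culture of mouse 1.

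*C1ra*, which encodes the C1r protease that activates C1s, was at 17.5, 12.5, 13.2 and 14.9 CPM in vehicle and at 30.3, 18.3, 22.9 and 23.8 CPM in bilirubin cultures. The groups did not overlap in CPM, and mouse 1 was highest and mouse 2 lowest in both. In TPM they overlapped, with 9.61 in mouse 2 with bilirubin and 9.82 in mouse 1 with vehicle. The log2 fold change was 0.71 (SE 0.06), or 1.63-fold, with a narrow spread between mice of 0.55 to 0.79, and 41.6% of tested genes had a smaller spread of the change between mice. *C1ra* and *C1s1* thus differed in the size of the change although both were higher in every mouse, and the ratio of their TPM had a median of 30.0 (range 10.3 to 56.8) in vehicle and 6.95 (4.16 to 10.7) in bilirubin cultures. The ranges overlapped, since the ratio was 10.3 and 10.7 in the cultures of mouse 1, whose vehicle value included the short *C1s1* transcript.

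Near-identical copies of these genes can share reads. *C1s2*, the copy of *C1s1*, was at 5 to 9.1 counts in vehicle and 15.1 to 50.7 counts in bilirubin cultures and rose, with a log2 fold change of 2.31 (SE 0.39, adjusted p = 0.00877, edgeR quasi-likelihood test with Benjamini-Hochberg adjustment). It is not independent of *C1s1* where reads could be given to either copy. *C1rb*, the copy of *C1ra*, did not pass the test (log2 fold change 0.14, SE 0.42, adjusted p = 0.903, edgeR). When each gene was summed with its copy or overlapping gene, 5 of the complement genes chosen were past the threshold, as without summing.

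*C4b*, which encodes the C4 that the C1 proteases cleave, had 0, 6, 13.1 and 2.1 counts in vehicle and 15, 3, 6.3 and 2 counts in bilirubin cultures. The counts were too few for the filter and the groups overlapped, so no difference was detectable at this depth. Its copy *C4a* had 4 to 14.9 counts in vehicle and 12 to 19.7 counts in bilirubin cultures, with a log2 fold change of 0.69 (SE 0.43, adjusted p = 0.433, edgeR).

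The recognition subunit did not follow the proteases. *C1qc* was at 143, 94.4, 105 and 130 CPM in vehicle and at 157, 54.0, 76.4 and 83.1 CPM in bilirubin cultures of mice 1 to 4. It was lower with bilirubin in mice 2, 3 and 4 and slightly higher in mouse 1, and the groups overlapped. The means were 118 ± 22.4 and 92.5 ± 44.5 CPM (SD, n = 4), with a log2 fold change of -0.44 (SE 0.13) and log2 changes of 0.13, -0.81, -0.46 and -0.64 in the individual mice.

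*C1qa* was at 37.5, 22.4, 24.4 and 35.8 CPM in vehicle and at 61.0, 11.5, 25.3 and 24.9 CPM in bilirubin cultures. *C1qb* was at 11.7, 8.08, 10.1 and 12.8 CPM in vehicle and at 23.2, 3.18, 8.40 and 9.56 CPM in bilirubin cultures. For both chains mouse 1 was well above and mouse 2 well below its vehicle culture, and the groups overlapped. The log2 fold changes were -0.14 (SE 0.22) for *C1qa*, with 0.70, -0.96, 0.05 and -0.52 in mice 1 to 4, and -0.18 (SE 0.30) for *C1qb*, with 0.98, -1.33, -0.27 and -0.42. Neither chain was past the threshold, and the sign of the log2 fold change depended on the mice included, being 0.09 for *C1qa* and 0.12 for *C1qb* without mouse 2. In the model without the mouse it was 0.03 for *C1qa* and 0.04 for *C1qb*.

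The spread between mice widened for every C1q chain with bilirubin. The highest vehicle culture was 1.68 times the lowest for *C1qa*, 1.59 times for *C1qb* and 1.52 times for *C1qc*, and with bilirubin these ratios were 5.31, 7.28 and 2.90. Widening was not limited to C1q. The ratio went from 1.16 to 2.03 for *C3*, from 1.13 to 1.56 for *Cfp* and from 1.40 to 1.66 for *C1ra*. For *C1s1* it narrowed from 1.85 to 1.22. The 3 chains together were at 193, 125, 139 and 178 CPM in vehicle and at 241, 68.7, 110 and 118 CPM in bilirubin cultures. Without mouse 1, whose bilirubin library had the lowest total count, the log2 fold changes were -0.45 for *C1qa*, -0.61 for *C1qb* and -0.63 for *C1qc*, and the last 2 were past the threshold. *C1qc* was also past it when no filter on low counts was used. The spread of the change between mice was smaller in 92.5% of tested genes than for *C1qa*, in 96.1% than for *C1qb* and in 82.0% than for *C1qc*. This was not particular to C1q. The same share was 99.1% for *Cfb*, 83.3% for *C1s1*, 80.1% for *C3*, 71.3% for *Cfp* and 41.6% for *C1ra*.

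**Figure D3:**
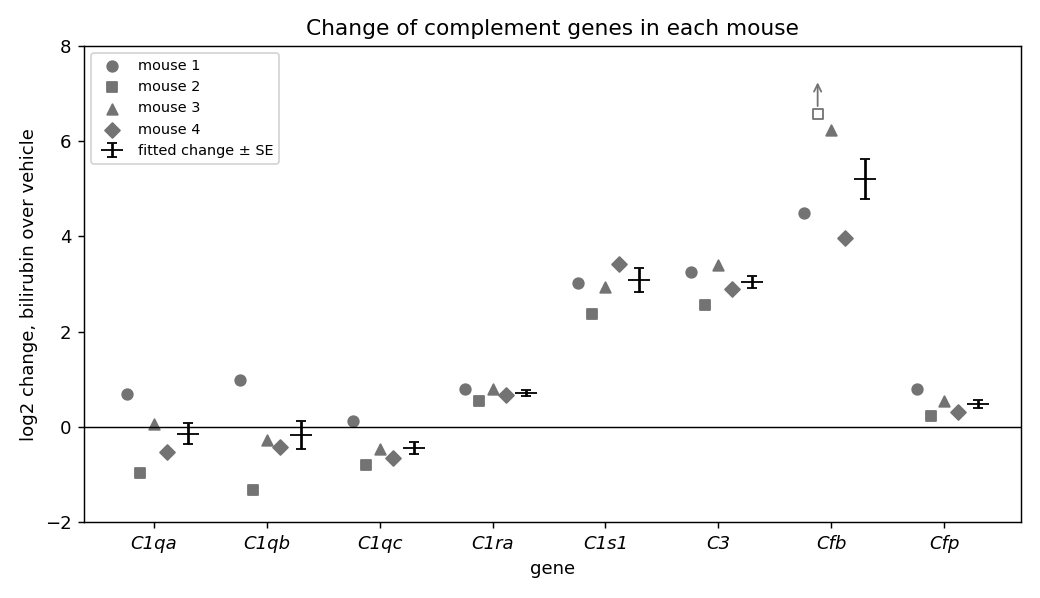
Log2 change from vehicle to bilirubin of the 8 genes past the filter, for each mouse (gray symbols, from log2 CPM at a prior count of 2) and from the edgeR model (bar with ± SE). The open square with an arrow is the lower bound of at least 94.4-fold for *Cfb* in mouse 2 by the counts given to *Cfb* alone. With all counts of *Gm20547* added, a gene that overlaps both *Cfb* and *C2*, the ratio was 27.5. *C1ra* symbols lie close together at 0.55 to 0.79, whereas *C1qb* symbols run from -1.33 to 0.98.

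Despite this spread the order of the C1q chains in TPM was the same in all 8 libraries, with *C1qc* above *C1qa* and *C1qa* above *C1qb*. The ratio of *C1qc* to *C1qa* had a median of 3.39 (range 3.06 to 3.63) in vehicle and 2.68 (2.17 to 3.97) in bilirubin cultures. The ratio of *C1qc* to *C1qb* was 9.80 (9.0 to 10.9) and 7.92 (6.01 to 15.1).

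Set side by side by role, the balance between recognition, proteases and the C3 arm was different in the bilirubin cultures. *C1qc* was 32.9 times *C3* in TPM in vehicle cultures (median, range 29.1 to 35.5) and 2.65 times *C3* with bilirubin (2.06 to 4.63). *Cfp* was 34.5 times *C3* in vehicle (27.7 to 34.6) and 5.48 times with bilirubin (4.49 to 6.66). For *C1qc* over *C1ra* the medians were 22.0 (20.6 to 23.6) and 9.28 (8.04 to 14.1). The bilirubin and vehicle ranges were separate for each of these ratios. They follow from the same difference by which the genes were chosen and are a description.

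The other complement genes were taken from a list of 51 written by pathway role. In this list 20 genes passed the filter, 3 rose, 1 fell and 16 did not pass the test, with a median log2 fold change of 0.03, against -0.00181 over all tested genes. Over all tested genes 4.49% rose and 3.04% fell. At an unadjusted p of 0.05, 10 passed, against 20.8% of all tested genes. A further 20 genes were at 3 counts or fewer in every library, 15 of them at 0 throughout. All 4 genes that passed encode receptors, a class in which 11 of 13 genes were tested.

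*Itgam* and *Itgb2*, which encode the subunits of complement receptor 3 that binds C3 fragments on targets, both rose. *Itgam* was at 852, 865, 851 and 830 CPM in vehicle and at 1090, 988, 1020 and 972 CPM in bilirubin cultures of mice 1 to 4. The groups did not overlap, and the log2 fold change was 0.26 (SE 0.04, adjusted p = 0.00356, edgeR). *Itgb2*, which was also among the highest receptor genes in vehicle cultures (504 ± 21.0 TPM, SD, n = 4), went from 844 ± 41.1 to 1099 ± 97.9 CPM (log2 fold change 0.38, SE 0.05, adjusted p = 0.00194, edgeR), higher in 4 of 4 mice. *Itgam* is also one of the macrophage markers above.

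*Lilrb4a*, which encodes an inhibitory receptor and was placed in the receptor class of the list, rose from 389 ± 24.7 to 477 ± 27.3 CPM (SD, n = 4, log2 fold change 0.29, SE 0.04, adjusted p = 0.00265, edgeR). Whether its product binds a complement protein was not examined here. *Cd93*, which encodes a surface protein first described as a C1q receptor, was at 710, 683, 660 and 675 CPM in vehicle and at 649, 523, 492 and 482 CPM in bilirubin cultures. It fell in all 4 mice with a log2 fold change of -0.36 (SE 0.06, adjusted p = 0.00635, edgeR), and the groups did not overlap in CPM. In TPM they overlapped, with a lowest vehicle value of 157 and a highest bilirubin value of 159. Without mouse 3 or mouse 4 it no longer passed (adjusted p = 0.0726 and 0.0516, edgeR). Among receptor genes *Calr*, whose product calreticulin binds C1q, had the highest vehicle level at 982 ± 34.7 TPM and did not pass (log2 fold change 0.10, SE 0.04, adjusted p = 0.191, edgeR), although it was among the 7 genes of the list that passed without mouse 1.

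**Figure D4:**
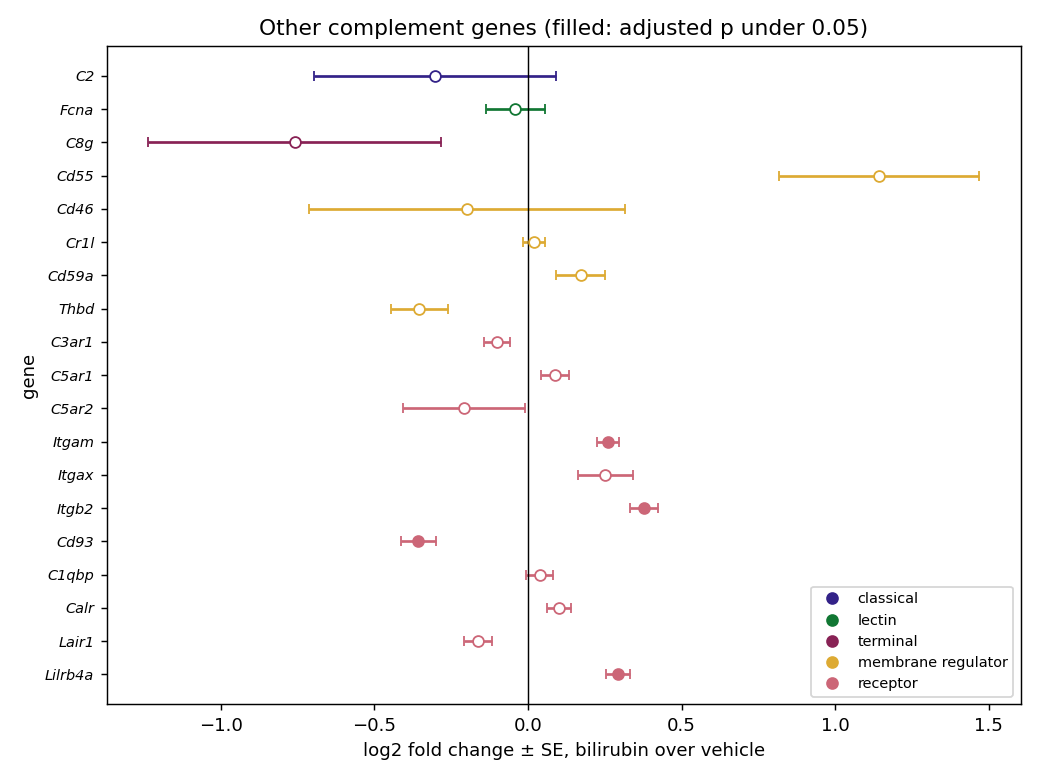
Log2 fold change ± SE, bilirubin over vehicle, of the other complement genes past the filter, soluble regulators not drawn, colored by role, with filled symbols for an adjusted p under 0.05 (edgeR). *Itgam*, *Itgb2* and *Lilrb4a* lie to the right of 0 and *Cd93* to the left, and every other symbol is open.

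Among the other roles no gene passed the test. *C2*, which completes the classical convertase, was low (0.712 ± 0.463 TPM in vehicle, log2 fold change -0.30, SE 0.39, adjusted p = 0.739, edgeR). *Cfd*, which encodes the factor D that activates factor B, was at 0 counts in all 8 libraries. Of the lectin pathway 1 of 8 genes was tested, the ficolin gene *Fcna* (16.7 ± 0.523 TPM in vehicle, log2 fold change -0.04, SE 0.10, adjusted p = 0.872, edgeR), and its protease gene *Masp2* was at 0.276 ± 0.147 TPM.

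Of the 7 terminal genes 1 was tested, *C8g* (0.827 ± 0.295 TPM in vehicle, log2 fold change -0.76, SE 0.48, adjusted p = 0.435, edgeR), and *C9* was at 0.135 ± 0.168 TPM. Among the soluble regulators *Cpn1* was at 0.103 ± 0.0406 TPM. Of the 9 membrane regulators 5 were tested and 2 had an unadjusted p under 0.05. These were *Cd55* (log2 fold change 1.14, SE 0.33, adjusted p = 0.0795, edgeR), an inhibitor of convertases that was under 1 CPM in every library, and *Thbd* (log2 fold change -0.35, SE 0.09, adjusted p = 0.0592, edgeR), which encodes thrombomodulin, and both were singled out after their values were seen. The highest were *Cr1l*, which encodes the rodent inhibitor Crry (64.4 ± 4.01 TPM in vehicle, log2 fold change 0.02, SE 0.04, adjusted p = 0.815, edgeR), and *Cd59a*, which encodes an inhibitor of the membrane attack complex (11.8 ± 0.614 TPM, log2 fold change 0.17, SE 0.08, adjusted p = 0.276, edgeR). The positive regulator *Cfp* was thus higher with bilirubin, while the membrane inhibitor genes *Cr1l*, *Cd59a* and *Cd55* did not pass the test. Of these, *Cd55* was higher in 4 of 4 mice and its groups did not overlap in CPM. A difference between *Cfp* and these genes was not tested.

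Genes whose change across the 4 mice was most like that of *C3* were sought among 10900 tested genes by the root mean square difference of the log2 changes. *Acod1*, the itaconate-forming enzyme of activated macrophages, was closest at 0.452, with log2 changes of 3.11, 3.00, 3.87 and 3.53 in mice 1 to 4. The neutrophil chemokine gene *Cxcl1* (0.460), the chemokine gene *Ccl5* (0.485), the zinc transporter gene *Slc39a4* (0.535) and *Il1b* (0.539), which encodes interleukin 1 beta, followed. For *C1qa*, the closest were *ARVCF* (0.134), *Nxpe5* (0.165), *Adgb* (0.193), the chemokine gene *Ccl6* (0.211) and the potassium channel gene *Kcnj10* (0.222). Each of these 5 was higher with bilirubin in mouse 1 and lower in mouse 2, which follows from their being picked for likeness to *C1qa*. The measure rests on 4 mice and sorts genes by the same difference as above.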

How the data were processed

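RNA was isolated with TRIzol from whole BMDM cultures, and polyadenylated RNA was sequenced. The authors trimmed reads with Trim Galore 0.6.7 and cutadapt 3.4, aligned them with STAR 2.7.9a to GRCm39 and quantified transcripts with Salmon 1.10.1 (versions from the submitters' processing notes). The authors deposited estimated counts per gene, summed from transcripts with tximport and not normalized, of which 88.5% of values were whole, and per library the estimated counts and TPM of transcripts. The strand setting is not given in the sources used here. Reads shared by near-identical copies or overlapping genes were split by Salmon's estimate.

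Estimated counts, rounded to whole numbers, were fitted in edgeR 4.0.16 (R 4.3.3) by treatment with mouse as a block, after TMM scaling and filterByExpr (minimum count 10, minimum total 15), with the quasi-likelihood test and Benjamini-Hochberg adjustment over 13722 genes, at a threshold of 0.05. The standard error is the fitted log2 change divided by the square root of F, and log2 CPM per library used a prior count of 2. At a depth of 34142781 to 47071714 counts, a vehicle count of 0 was set to 3 counts for a lower bound on the fold, which covers counting error only. TPM of transcripts was summed per gene. Gene positions are from GENCODE vM39.

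Cultures were paired because the labels give the same culture number, read here as the animal, and the methods use the mouse as a covariate. Deviations from the group mean correlated at 0.108, 0.134, 0.108 and -0.00530 within mice 1 to 4. Between mice the mean was -0.0279 and the highest value 0.0751, which is above that of mouse 4.

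The 9 genes, the lists and the motifs were chosen with earlier results of these data known. Named were the 9 genes, their copies and overlapping genes, of the wider list every gene past the threshold and up to 2 of the highest in vehicle TPM per role, and the 5 genes nearest to *C3* and to *C1qa* (mean log2 CPM 1 or more). Alternatives were the model without mouse, DESeq2 1.42.0, limma 3.58.1 (voom), RLE or library-size scaling, no filter, a CPM above 1 in 4 libraries, an offset for effective transcript length, copies summed, and each mouse left out. Scripts were tested on simulated data. Other experiments of the paper and raw reads were not analysed here. The values of 1 gene of the wider list are not reported here.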

Additional observations from a re-analysis of the deposited data

Results flagged for a closer look

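In 1 of 36 groups of 4 values examined, a value lay far from the others. *C3* in the vehicle culture of mouse 2 was at 14.1 CPM, below 16.0 to 16.3 CPM in the other 3 vehicle cultures, and the gap was 0.845 of the range of the group, past the 95% critical value of Dixon's test for 4 values. Chance alone places about 1 in 20 groups past this limit. In the bilirubin cultures the same mouse had the lowest *C3* value, 83.8 CPM, and without mouse 2 the log2 fold change of *C3* was 3.19.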

How the results depend on the processing

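Over 13 alternatives, *C1ra*, *C1s1*, *C3*, *Cfb*, *Itgam*, *Itgb2* and *Lilrb4a* were past the threshold in every one, *Cfp* in 12 and *Cd93* in 11, and 0 of these log2 fold changes reversed. With the pairing by mouse left out (no replicate block), 686 genes were called in all, against 1033, and the calls of the 9 chosen genes did not change, while 1 more gene of the wider list (*Thbd*) passed. Without a filter 1692 genes were called, and 7 of the wider list, and with the transcript length offset 579 were called. With each mouse left out in turn, 377 to 1910 genes in all were called (377 when mouse 3 was omitted, 441 for mouse 4, 634 for mouse 2 and 1910 for mouse 1), 3 to 7 of the wider list and 4 to 7 of the chosen genes. The cause was not tested. Library-size scaling gave 527 higher and 556 lower genes, against 616 and 417 with TMM, and the calls of the chosen genes did not change. Depth limits *C4b*, and *Cfb* and *C1s1* in vehicle cultures, where counts were at most 28 for *Cfb* and 17.9 for *C1s1*. With the transcript length offset the log2 fold change of *C1s1* was 2.72 (SE 0.51).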

Other observations

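Among the 8 chosen genes that were tested, mouse 2 had the lowest bilirubin culture for 8 and the lowest vehicle culture for 7. Over all tested genes, mouse 2 was lowest for 25.7% in bilirubin and for 22.9% in vehicle cultures. The order was noticed after the values were seen. Among the chosen genes *C1s1* was the exception in vehicle cultures, and *Cfb* was lowest there by a count of 0. Receptor genes of the wider list were mixed, and not all had mouse 2 lowest. *Itgb2* was lowest in mouse 4 among vehicle cultures (796 CPM) and in mouse 1 among bilirubin cultures (955 CPM), and *Cd93* was lowest in mouse 4 among bilirubin cultures (482 CPM). *Lilrb4a* was lowest in mouse 2 among bilirubin cultures (447 CPM), and *Calr* was lowest in mouse 2 among vehicle cultures (1071 CPM). The chosen genes share cultures and were selected on these values, so the counts are a description with no test.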
